A study of Mus musculus with 6 samples.

Results

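The forkhead transcription factor genes are the 44 protein-coding mouse genes with a curated RefSeq transcript whose symbol is Fox, a letter from a to s and a number, out of 21000 protein-coding genes chosen by the same annotation. They were examined for Lsd1 peaks in ChIP-seq of C2C12 cells, an established mouse myoblast line, on day 1 of differentiation. A promoter peak is a peak whose centre lies within 2000 bp of any transcription start site (TSS) of the gene, and a locus peak is one whose centre lies in the gene body or within 10 kb of either end. Wild-type cells were kept in myogenic medium (horse serum) or in adipogenic medium (fetal calf serum with isobutylmethylxanthine, indomethacin, dexamethasone, insulin, T3 and rosiglitazone), and the cells labelled Overexpression, here LSD1(OE), were kept in adipogenic medium. LSD1(OE) is 1 stable line, infected with a lentivirus that carries Flag-tagged LSD1 behind a tetracycline-dependent promoter, selected with G418 and treated with doxycycline from before differentiation. Whether wild-type cultures also received doxycycline is not given in the sources used here. The line, its selection, doxycycline and the added LSD1 therefore cannot be told apart in these libraries. Each condition had 1 ChIP library, precipitated with a homemade antibody to the C-terminus of Lsd1, and 1 input library. No value has a replicate, and no test between conditions was possible.

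Forkhead factors share a winged-helix DNA-binding domain, and several of them can bind their sites in compacted chromatin. The FoxO members are switched off by insulin signalling through Akt and turn on atrophy and cell cycle exit genes in skeletal muscle, FoxK1 marks muscle precursor cells, and FoxC2 acts in adipocytes. Lsd1 is a histone lysine demethylase that works in corepressor complexes and can also sit at active promoters. A peak shows where its antibody enriched DNA and says nothing about expression of the gene.

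After removal of duplicates, 46155625 ChIP tags remained for the myogenic condition, 63915769 for the adipogenic condition and 55193310 for LSD1(OE), and 43426, 18893 and 33533 peaks were deposited. The weakest deposited peaks held 27, 35 and 30 tags, so that a gene without a peak is one at which enrichment did not reach this limit, not one shown to lack Lsd1. The score of a peak is 10 times −log10 of its p-value. ChIP tags had been scaled up by 1.90, 1.28 and 1.82 to match the larger input before that p-value was computed, so scores rank peaks within a library and are not 1 scale across libraries. Across libraries the comparison used here is the tag density, that is ChIP tags per 1 kb of peak and per 1000000 filtered ChIP tags, which includes background tags and depends on the called length. Its 95% Poisson intervals cover counting error only. Among 6 myoblast and myocyte markers, promoter peaks were found at 4 in the myogenic, 0 in the adipogenic and 3 in the LSD1(OE) library. Among 5 adipocyte markers they were found at 2, 0 and 2. Of all protein-coding genes 51.6, 30.0 and 41.2% had a promoter peak in the same order of libraries, and no test was run. These counts describe Lsd1 at those genes and do not identify the cells by expression.

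Forkhead genes with Lsd1 at the promoter were counted in each library and set beside the share of all genes. In the myogenic library 22 of 44 forkhead genes (50%) had a promoter peak, beside 51.6% of all protein-coding genes. In the adipogenic library these were 16 (36.4%) beside 30.0%, and in the LSD1(OE) library 23 (52.3%) beside 41.2%. No test was run on these shares. A promoter peak in all 3 libraries was found at 16 genes (36.4%, beside 26.3% of all genes), namely Foxa3, Foxc1, Foxc2, Foxf2, Foxh1, Foxj3, Foxk2, Foxl1, Foxm1, Foxo1, Foxo3, Foxo6, Foxp1, Foxp4, Foxq1 and Foxs1. Every forkhead gene with an adipogenic promoter peak thus also had one in both other libraries, as did 5523 of the 6295 genes with an adipogenic promoter peak among all genes. Foxd1, Foxd2, Foxj2, Foxk1 and Foxn2 had one in the myogenic and LSD1(OE) libraries but not in the adipogenic library (5 genes, 11.4%, beside 11.8% of all genes). Foxj1 had one in the myogenic library alone, as did 10.7% of all genes, and Foxa2 and Foxf1 in LSD1(OE) alone, as did 2.58% of all genes. The remaining 20 genes (45.5%, beside 44.9% of all genes) had none.

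**Figure D1:**
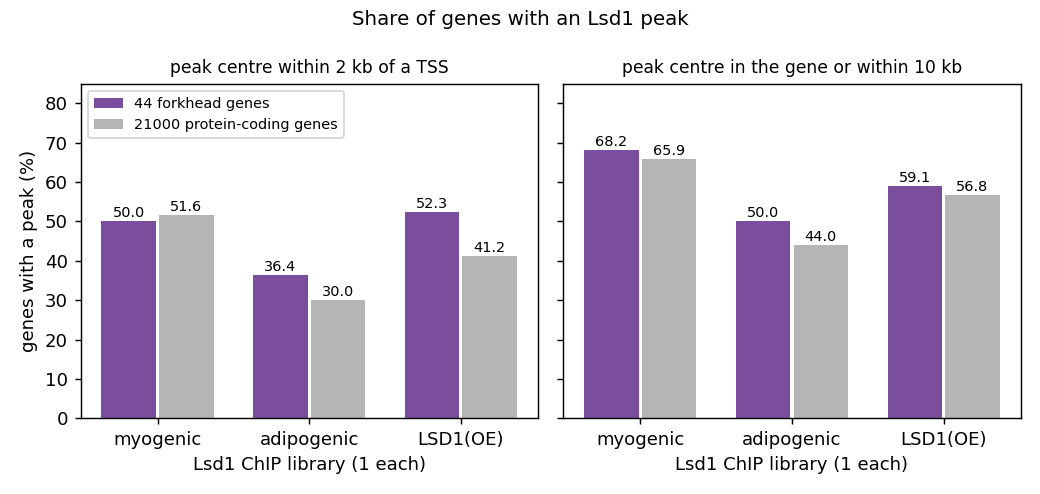
Percentage of the 44 forkhead genes and of 21000 protein-coding genes with an Lsd1 peak in each library (1 library per condition), for promoter peaks (left) and locus peaks (right). In the myogenic library 50% of forkhead genes and 51.6% of all genes had a promoter peak, and in the LSD1(OE) library 52.3% and 41.2%.

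The same was counted over the wider loci. A locus peak was present at 30 forkhead genes in the myogenic library (68.2%, beside 65.9% of all genes), at 22 in the adipogenic library (50%, beside 44.0%) and at 26 in the LSD1(OE) library (59.1%, beside 56.8%). In all 3 libraries it was present at 22 genes (50%, beside 40.6%), and in none at 12 (27.3%, beside 30.6%). Forkhead genes are short, with a median length of 5067.5 bp against 16724 bp for all protein-coding genes, and a shorter gene offers a smaller window. The part of gene length in these shares was not tested.

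Where a forkhead promoter had a peak, the peak was long and high, and its centre lay away from the TSS. The median score of the strongest promoter peak per gene was 589 over 22 forkhead genes and 323 over all genes with one in the myogenic library. It was 320 over 16 genes and 141 in the adipogenic library, and 346 over 23 genes and 205 in LSD1(OE). Forkhead scores ran from 53.7 (Foxd1) to 1895 (Foxc1) in the myogenic library, from 107 (Foxl1) to 777 (Foxq1) in the adipogenic library and from 58.5 (Foxa2) to 2087 (Foxq1) in LSD1(OE). In the myogenic and LSD1(OE) libraries 3 and 4 of these genes lay below the lower quartile of all genes, and in the adipogenic library 0. Median peak length was 1832.5, 2018.5 and 1520 bp for forkhead genes and 1325, 1226 and 1203 bp for all genes in the same order of libraries. Peaks of 2000 bp or more made up 10 of 22 forkhead peaks in the myogenic library (45.5%, against 16.7% for all genes), 8 of 16 in the adipogenic library (50%, against 13.2%) and 8 of 23 in LSD1(OE) (34.8%, against 14.7%). The centres of the strongest forkhead promoter peaks, of any length, lay a median of 616.5, 811 and 661 bp from the TSS, beside 176, 207 and 211 bp for all genes. The part of peak length in the scores was not tested.

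The overlap of forkhead peaks between libraries was set beside that of the peaks of all genes, and no test was run on it. All 17 adipogenic promoter peaks of forkhead genes overlapped a myogenic peak, beside 95.4% for all genes, and 16 of them (94.1%) an LSD1(OE) peak, beside 87.0%. Of the 27 myogenic promoter peaks 17 (63.0%, beside 51.7%) overlapped an adipogenic peak and 23 (85.2%, beside 67.8%) an LSD1(OE) peak. Of the 30 LSD1(OE) promoter peaks 24 (80%, beside 87.3%) overlapped a myogenic and 18 (60%, beside 60.2%) an adipogenic peak. Of 82 myogenic locus peaks away from promoters 20 (24.4%, beside 32.8%) overlapped an adipogenic and 41 (50%, beside 42.8%) an LSD1(OE) peak. Of 30 such adipogenic peaks 19 (63.3%, beside 78.3%) overlapped a myogenic and 21 (70%, beside 71.8%) an LSD1(OE) peak. Of 73 such LSD1(OE) peaks 38 (52.1%, beside 56.7%) overlapped a myogenic and 23 (31.5%, beside 39.6%) an adipogenic peak. Introns held 51 of the 82 in the myogenic library, 23 of 30 in the adipogenic library and 49 of 73 in LSD1(OE). No share over all genes was computed for these intron counts, so they do not describe a trait of the family. Many came from 1 long gene, Foxp1, which spans 595652 bp and held 16, 13 and 28 locus peaks in the 3 libraries, promoter peaks included.

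**Figure D2:**
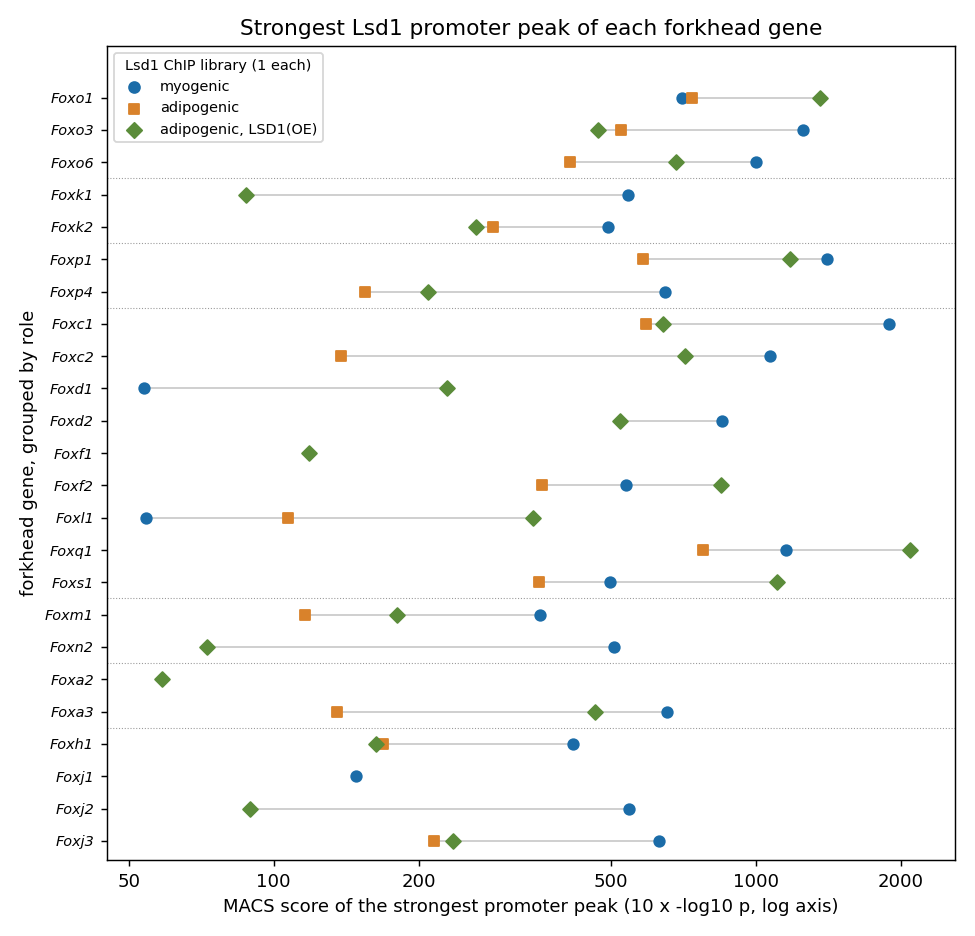
Score of the strongest Lsd1 promoter peak (10 times −log10 p, log axis) for each of the 24 forkhead genes with one, by role, with 1 symbol per library and dotted lines between the role groups. Scores ran from 53.7 at Foxd1 in the myogenic library to 2087 at Foxq1 in LSD1(OE). Scores rank peaks within a library, since the libraries were scaled by different factors.

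The promoter bases of the members with the strongest shared peaks show what kind of sequence lay under them. For 28 of the 44 genes (63.6%) RefSeq promoter windows of the GRCm38.p6 build were available here. The 6 promoters printed first belong to the genes with an entry and a promoter peak in all 3 libraries that were highest by their lowest score, and the last 2 to the first genes by symbol with no locus peak in any library. Each line gives 250 bases that end 1 base before the TSS, 5′ to 3′ on the gene's strand. Capitals mark matches, on either strand, to 4 motifs, namely the forkhead core TGTTTAC, the E-box CANNTG bound by myogenic helix-loop-helix factors, the AP-1 site TGANTCA and the GC box GGGCGG. Each motif was counted alone where matches overlapped.
Foxo1: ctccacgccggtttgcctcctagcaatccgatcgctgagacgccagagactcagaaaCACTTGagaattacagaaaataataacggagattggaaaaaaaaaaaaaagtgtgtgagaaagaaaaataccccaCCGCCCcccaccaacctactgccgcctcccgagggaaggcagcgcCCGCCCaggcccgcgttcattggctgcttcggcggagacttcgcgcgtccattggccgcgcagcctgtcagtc
Foxc1: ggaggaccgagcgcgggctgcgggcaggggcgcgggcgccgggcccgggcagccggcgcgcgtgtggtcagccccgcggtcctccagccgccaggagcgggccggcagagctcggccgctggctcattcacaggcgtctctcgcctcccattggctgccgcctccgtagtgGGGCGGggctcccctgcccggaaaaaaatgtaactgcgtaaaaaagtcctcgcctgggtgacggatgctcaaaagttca
Foxp1: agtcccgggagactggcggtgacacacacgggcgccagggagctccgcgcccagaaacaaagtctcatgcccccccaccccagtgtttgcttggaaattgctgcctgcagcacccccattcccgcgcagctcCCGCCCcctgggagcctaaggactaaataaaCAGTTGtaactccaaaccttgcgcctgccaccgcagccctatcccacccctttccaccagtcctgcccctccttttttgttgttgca
Foxo3: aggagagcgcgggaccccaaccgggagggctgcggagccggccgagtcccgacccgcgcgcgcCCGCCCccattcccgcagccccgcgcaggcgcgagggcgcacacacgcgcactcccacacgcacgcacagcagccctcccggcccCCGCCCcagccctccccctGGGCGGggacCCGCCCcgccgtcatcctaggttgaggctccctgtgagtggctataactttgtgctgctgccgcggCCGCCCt
Foxf2: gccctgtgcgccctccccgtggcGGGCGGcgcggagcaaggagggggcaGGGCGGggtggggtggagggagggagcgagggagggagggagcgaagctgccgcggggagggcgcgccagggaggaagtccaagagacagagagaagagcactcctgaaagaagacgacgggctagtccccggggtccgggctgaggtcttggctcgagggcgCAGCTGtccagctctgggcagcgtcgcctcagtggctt
Foxk2: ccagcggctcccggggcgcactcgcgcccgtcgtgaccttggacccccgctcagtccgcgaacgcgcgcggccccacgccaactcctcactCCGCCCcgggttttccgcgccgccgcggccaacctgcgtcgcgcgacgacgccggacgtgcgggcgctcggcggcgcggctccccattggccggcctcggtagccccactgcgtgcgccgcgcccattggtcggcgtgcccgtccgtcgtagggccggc
Foxa1: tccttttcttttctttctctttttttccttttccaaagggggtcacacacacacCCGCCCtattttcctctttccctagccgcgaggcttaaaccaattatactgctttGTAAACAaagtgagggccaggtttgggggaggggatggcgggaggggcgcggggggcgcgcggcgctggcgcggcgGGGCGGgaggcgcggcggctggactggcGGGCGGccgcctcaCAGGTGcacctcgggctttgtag
Foxd3: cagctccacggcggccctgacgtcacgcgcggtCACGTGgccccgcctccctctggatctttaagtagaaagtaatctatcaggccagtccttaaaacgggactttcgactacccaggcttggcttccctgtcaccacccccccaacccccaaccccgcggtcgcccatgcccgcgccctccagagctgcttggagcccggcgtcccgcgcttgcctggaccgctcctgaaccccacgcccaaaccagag
The regions were chr3:52268087-52268336 (plus strand) for Foxo1, chr13:31806396-31806645 (plus) for Foxc1, chr6:99520994-99521243 (minus) for Foxp1, chr10:42276696-42276945 (minus) for Foxo3, chr13:31625566-31625815 (plus) for Foxf2, chr11:121259737-121259986 (plus) for Foxk2, chr12:57546112-57546361 (minus) for Foxa1 and chr4:99656049-99656298 (plus) for Foxd3.

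Of the 6 windows with peaks, 5 lay wholly inside the strongest myogenic promoter peak of the gene and 1, that of Foxp1, lay partly inside. All 6 held a GC box, with 5 matches at Foxo3, and 3 held an E-box. Of the windows without a peak, that of Foxa1 held 3 GC boxes and 1 E-box, and that of Foxd3 held 1 E-box and no GC box. None of the 6 windows with peaks held the forkhead core, and the window of Foxa1, a gene without a peak, held it once. GC content ran from 56.0% (Foxo1) to 78.4% (Foxk2), beside a median of 52.4% over 32851 RefSeq promoter windows, and the observed to expected CpG ratio from 0.52 (Foxp1) to 1.28 (Foxk2), beside a median of 0.37. The windows without a peak also lay above both medians, with 62.0% GC and a ratio of 0.89 at Foxa1 and 65.6% and 0.85 at Foxd3. Over all windows 32.7% held a GC box, 66.2% an E-box, 6.75% an AP-1 site and 3.17% the forkhead core. Fewer than 80% of the family had a window, so a check of these features over the family is void and none is reported. A match describes letters and is not evidence of a bound factor.

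Foxo1, Foxo3 and Foxo6, effectors of insulin signalling, had promoter peaks in all libraries, and Foxo4, the remaining FoxO gene, had none. Foxo1 (chr3:52268337-52350109, plus strand) had a promoter peak of 2602 bp with 193 tags and a score of 704 in the myogenic library, one of 3754 bp with 346 tags and a score of 739 in the adipogenic library, and one of 3420 bp with 336 tags and a score of 1360 in LSD1(OE). All 3 peaks covered the TSS and were centred 591, 284 and 655 bp downstream of it. Its tag densities were 1.61 (95% Poisson interval 1.39 to 1.85), 1.44 (1.29 to 1.60) and 1.78 (1.59 to 1.98). The myogenic interval overlapped both others, and the LSD1(OE) density was 1.23 times the adipogenic one (interval of the ratio 1.06 to 1.44). Foxo1 had the highest adipogenic to myogenic ratio of the family, 0.90 (0.75 to 1.08), an interval that included 1.

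Foxo3 (chr10:42181845-42276695, minus strand) had its strongest promoter peak 744 bp upstream of the TSS in the myogenic library, with a score of 1256 and a density of 2.05 (1.82 to 2.31). The adipogenic peak, 787 bp upstream, scored 527 at a density of 1.48 (1.31 to 1.68). A weaker myogenic peak, 1613 bp downstream, scored 260. In LSD1(OE) 3 promoter peaks with scores of 472, 277 and 146 overlapped these 2 myogenic peaks, the strongest of them 1337 bp upstream at a density of 1.60 (1.34 to 1.89). The myogenic density stood above both others, since the ratio was 0.72 (0.61 to 0.86) for adipogenic over myogenic and 0.78 (0.63 to 0.96) for LSD1(OE) over myogenic. The weakest LSD1(OE) peak lay 1982 bp downstream of the TSS, just inside the 2000 bp limit. Beyond the 3' end, 98.3 kb from the TSS, a further myogenic peak scored 448. An LSD1(OE) peak overlapping it scored 208, and no adipogenic peak overlapped it.

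Foxo6, the FoxO member best known from the brain, carried more Lsd1 inside the gene than at its promoter. Its promoter peaks scored 1004, 412 and 683 in the myogenic, adipogenic and LSD1(OE) libraries, at densities of 2.23 (1.92 to 2.58), 1.44 (1.25 to 1.66) and 1.77 (1.51 to 2.06). An intronic peak about 9.46 kb downstream of the TSS in the myogenic library (chr4:120276550-120279054) scored 1809 with 294 tags, the adipogenic peak overlapping it scored 1631 with 436 tags, and the LSD1(OE) peak 1366 with 242 tags. In the adipogenic library this peak scored above 99.8% of all deposited peaks. Its densities, 2.54 (2.26 to 2.85), 2.15 (1.96 to 2.37) and 2.33 (2.05 to 2.65), overlapped in their intervals. That overlap does not show equal densities, and intervals of the ratio were computed for promoter peaks only. A second intronic peak, 3.40, 4.49 and 4.38 kb from the TSS in the 3 libraries, scored 977, 467 and 537. Foxo6 thus held several strong peaks in every library, as the plot of 4 loci shows. Foxo4, on the X chromosome, had a single weak peak, in the myogenic library, 5.94 kb downstream in its 3' UTR, with a score of 57.1 and 32 tags.

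The FoxK genes, repressors that bind the Sin3 complex, differed from each other. Foxk2 had a promoter peak in each library, with scores of 494, 285 and 263 and densities of 1.77 (1.46 to 2.12), 1.33 (1.14 to 1.56) and 1.33 (1.08 to 1.62). Both adipogenic libraries stood below the myogenic one, by ratios of 0.76 (0.59 to 0.97) and 0.75 (0.57 to 0.99). Foxk1 (chr5:142401497-142462015, plus strand) had a myogenic promoter peak of 1867 bp with 142 tags and a score of 544, and an LSD1(OE) promoter peak of 666 bp with 42 tags and a score of 87.6. No adipogenic peak lay at its promoter. Inside the gene a peak 39.3 kb downstream of the TSS was called in all 3 libraries, with scores of 265, 66.4 and 443 and tag counts of 89, 60 and 128. The LSD1(OE) density was 0.69 (0.48 to 0.98) times the myogenic one at the promoter, while at the intronic peak the densities were 1.39 (1.12 to 1.72) in the myogenic library, 1.01 (0.77 to 1.3) in the adipogenic library and 1.44 (1.2 to 1.72) in LSD1(OE). The promoter thus differed between the myogenic and LSD1(OE) libraries beyond the counting interval. At the intronic peak the 3 intervals overlapped, but no interval of a ratio was computed there. Divided by the scaling factor of its ChIP tags, 1.82, the LSD1(OE) promoter score of Foxk1 is 48.0, under the 50 of the caller's limit. This is a rough correction, since no p-value was computed anew from unscaled tags.

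Of the FoxP genes, Foxp1 and Foxp4 had promoter peaks in all libraries, and Foxp2 and Foxp3 in none. Foxp1, a repressor with roles in heart, lung and lymphocytes, has 4 TSSs and had promoter peaks at 2 of them that are far apart. The strongest peaks lay at the most upstream TSS, where scores were 1408, 584 and 1180 and densities 2.14 (1.89 to 2.41), 1.37 (1.22 to 1.53) and 1.59 (1.43 to 1.77). A further peak over an internal TSS scored 700, 312 and 514. The adipogenic density at the upstream TSS was 0.64 (0.54 to 0.76) times the myogenic one, and the LSD1(OE) density was 0.75 (0.63 to 0.88) times it. The gene spans 595652 bp and held 16, 13 and 28 locus peaks in the 3 libraries, among them an intronic peak about 35.3 kb from the nearest TSS with scores of 569 in the myogenic library, 181 in the adipogenic library and 628 in LSD1(OE). Foxp4 scored 650, 155 and 209 at densities of 1.85 (1.56 to 2.18), 1.21 (0.98 to 1.47) and 1.29 (1.05 to 1.56). Foxp2, known for its role in speech circuits, had 1 intronic peak 31.4 kb from the nearest TSS, and Foxp3, the factor of regulatory T cells, 1 peak 5.43 kb upstream and 35 bp from the TSS of Ppp1r3f. Both were called in the myogenic library alone, with scores of 97.7 and 94.8.

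The genes of mesenchyme and mesoderm had promoter peaks at 8 of 10 in the myogenic library, 6 in the adipogenic library and 9 in LSD1(OE), beside 51.6, 30.0 and 41.2% of all genes. Of these 10 genes Foxl2, a gene of ovarian granulosa cells, was without a peak in any library. Foxq1 (chr13:31558170-31560976, plus strand) was covered from end to end or nearly so by peaks of 2984, 3039 and 3370 bp. They held 257, 314 and 428 tags and scored 1155, 777 and 2087, the highest forkhead promoter score in both adipogenic libraries. Densities were 1.87 (1.64 to 2.11), 1.62 (1.44 to 1.81) and 2.30 (2.09 to 2.53). Foxq1 was the 1 forkhead gene whose LSD1(OE) density exceeded the myogenic one beyond the counting interval, by 1.23 (1.05 to 1.45), and it exceeded the adipogenic one by 1.42 (1.23 to 1.65).

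Foxc1 and Foxc2, which pattern somites and vessels, had their highest densities in the myogenic library. This was shared with most genes. Where strongest promoter peaks overlapped, 96.6% of all genes had a lower density in the adipogenic than in the myogenic library. For LSD1(OE) against myogenic this was 86.1%. Foxc1 (chr13:31806646-31810635, plus strand) had a single myogenic promoter peak (chr13:31805496-31809233), which covered the TSS and ended before the 3' end of the gene. It was 3738 bp long, with 406 tags, a score of 1895 and a density of 2.35 (2.13 to 2.59). The adipogenic peak of 3065 bp scored 594 at 1.45 (1.29 to 1.63). In LSD1(OE) Foxc1 had 2 promoter peaks, of 2055 and 1664 bp, with scores of 644 and 401 and densities of 1.66 (1.43 to 1.91) and 1.45 (1.21 to 1.72). The density of the stronger of them was 0.70 (0.59 to 0.84) times the myogenic one. At Foxc2 (chr8:121116171-121118895, plus strand) scores were 1070, 138 and 715 and densities 1.80 (1.59 to 2.04), 1.05 (0.86 to 1.28) and 1.54 (1.34 to 1.76). Its adipogenic density was the lowest of the 3, at 0.58 (0.46 to 0.74) of the myogenic one, and the LSD1(OE) density was 1.46 (1.15 to 1.87) times the adipogenic one, the highest such ratio in the family. The LSD1(OE) density of Foxc2 was 0.85 (0.71 to 1.03) times the myogenic one, an interval that included 1.

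Foxf2, a gene of gut and brain mesenchyme, showed densities of 1.47 (1.26 to 1.71), 1.25 (1.09 to 1.42) and 1.43 (1.27 to 1.61), with scores of 539, 360 and 846, and no pair of libraries differed beyond the counting interval. Foxs1, expressed in pericytes, had promoter peaks of 2236, 4065 and 4209 bp with scores of 500, 355 and 1111 and densities of 1.5 (1.27 to 1.76), 1.24 (1.11 to 1.38) and 1.51 (1.36 to 1.68). Its strongest signal lay downstream of the gene. A myogenic peak of 5945 bp with 492 tags (chr2:152925124-152931068), centred 5.11 kb downstream of the TSS, scored 2070, above any forkhead promoter peak of that library. The strongest adipogenic and LSD1(OE) peaks overlapping it were 3158 and 3220 bp long and scored 459 and 1276. A further LSD1(OE) peak of 983 bp within it scored 120, and the adipogenic and LSD1(OE) promoter peaks of Foxs1 also reached into it. Densities of the myogenic peak and of the strongest adipogenic and LSD1(OE) peaks overlapping it were 1.79 (1.64 to 1.96), 1.53 (1.36 to 1.71) and 1.78 (1.59 to 1.99). These were taken over regions of unlike length.

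Foxc2 and Foxl1, a gene of intestinal mesenchyme, are neighbours with TSSs 11.5 kb apart on chromosome 8, and 2 regions beside Foxl1 outscored its promoter. The region between the genes (chr8:121123381-121126712 in the myogenic library) was called with scores of 1421, 107 and 1016 and lengths of 3332, 1010 and 3934 bp. Its centre lay 2639, 1932 and 3374 bp upstream of Foxl1, so that by the 2000 bp limit only the weak adipogenic call counts as a promoter peak, while the strong calls do not. A region about 6.73 kb downstream of the Foxl1 TSS in the myogenic library scored 1470, and those overlapping it 443 and 1153. At the Foxl1 body itself scores were 54.3 in the myogenic library and 346 in LSD1(OE), with 28 and 142 tags. The densities were 1.95 (1.74 to 2.18), 1.15 (0.9 to 1.44) and 1.47 (1.31 to 1.64) between the genes and 1.94 (1.73 to 2.16), 1.43 (1.24 to 1.63) and 1.73 (1.54 to 1.94) downstream, with the adipogenic library lowest at both, and the strongest promoter peaks of Foxl1 in the adipogenic library and the others are different regions.

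**Figure D3:**
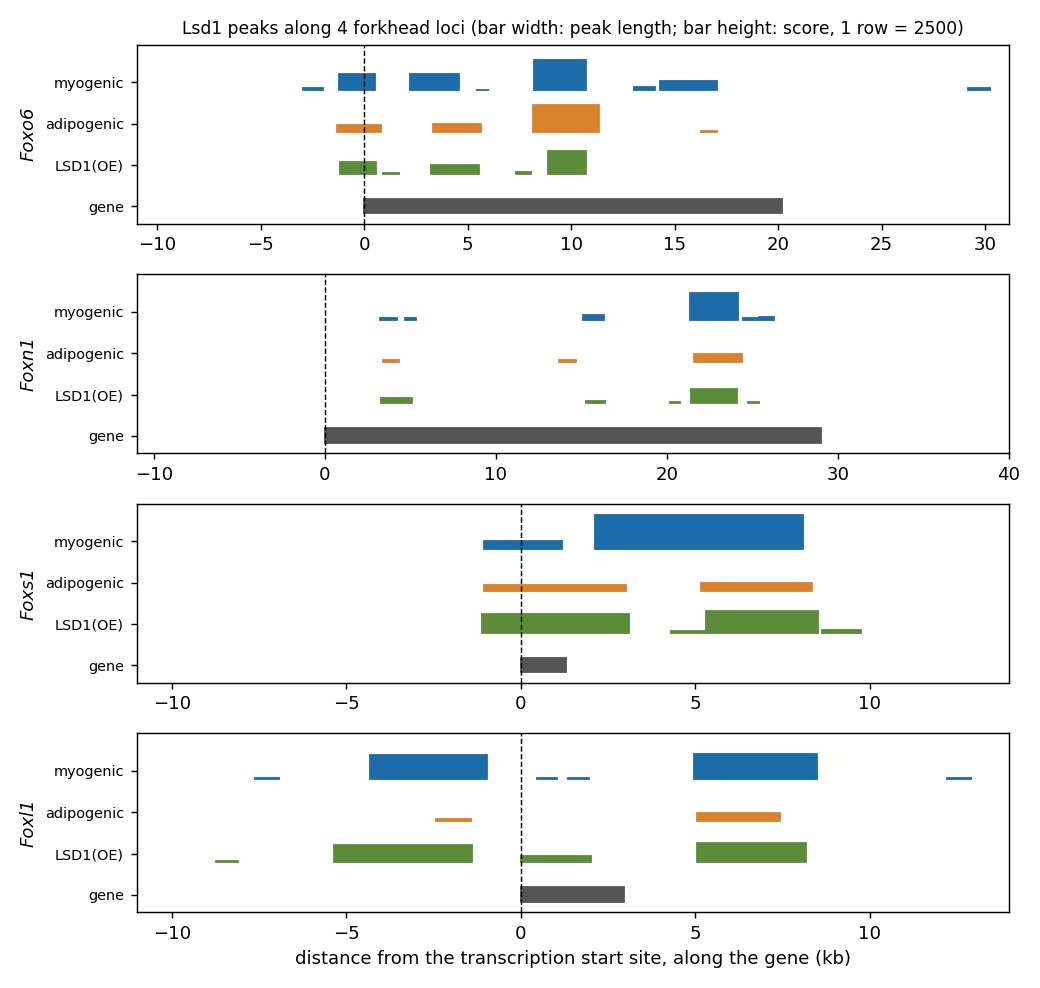
Lsd1 peaks along Foxo6, Foxn1, Foxs1 and Foxl1, in kb from the TSS in the direction of transcription (dashed line at the TSS, grey bar for the gene), with 1 row per library. Bar width is peak length and bar height is the score. The tallest bars lie inside Foxo6 (1809 in the myogenic library) and Foxn1 (1618) and beyond the 3' end of Foxs1 (2070) and Foxl1 (1470).

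The other genes of this group had peaks in fewer libraries. Foxd2 had promoter peaks in the myogenic library (score 852, 212 tags) and LSD1(OE) (524, 147 tags) at similar densities of 1.72 (1.5 to 1.97) and 1.61 (1.36 to 1.89), and the myogenic peak was centred 11 bp from the TSS of the noncoding Foxd2os. No adipogenic peak centre lay within 28721 bp of it. Foxd1, a gene of kidney stroma, had different peaks in the 2 libraries, 1663 bp upstream with a score of 53.7 and 31 tags in the myogenic library and 1139 bp downstream with a score of 229 and 99 tags in LSD1(OE). Foxf1, a gene of lung and gut mesenchyme, had 1 peak, in LSD1(OE), 1340 bp upstream with a score of 118 and 63 tags. That peak was centred 64 bp from the TSS of Fendrr, the noncoding gene beside it, and cannot be told apart from a peak of Fendrr. Foxq1, Foxf2 and Foxc1 lie on chromosome 13 with TSSs 67.6 and 180.8 kb apart, and all 3 had promoter peaks in every library.

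Foxm1, which drives mitotic genes, had promoter peaks in all 3 libraries that were not 1 region. The myogenic peak (score 357, 97 tags) lay 450 bp upstream and the adipogenic peak (score 116, 100 tags) 835 bp upstream, both nearer the TSS of Rhno1, 278 and 663 bp away, while the LSD1(OE) peak (score 180, 85 tags) lay 1721 bp downstream in an intron. The density of the adipogenic peak was 0.63 (0.47 to 0.85) times the myogenic one. Foxn2 had myogenic promoter peaks with scores of 509 and 109 and 1 LSD1(OE) peak with a score of 72.7, which overlapped the weaker of the 2. A peak in a coding exon of Foxn2 about 22.2 kb from the TSS was called in all 3 libraries with scores of 147, 81.0 and 66.4.

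Foxn1, Foxn3 and Foxn4 had no promoter peak in any library and yet an intronic peak in each. Foxn1, the thymic epithelial gene mutated in nude mice, carried one 22.8 kb downstream of its TSS (chr11:78362434-78365280) with scores of 1618, 485 and 874, tag counts of 292, 249 and 242 and densities of 2.22 (1.97 to 2.49), 1.39 (1.22 to 1.57) and 1.63 (1.43 to 1.85). In the myogenic library it scored above 99.1% of all deposited peaks. Its centre there lay nearer the TSS of Unc119, 17147 bp away, than that of Foxn1. Foxn3, a checkpoint repressor, carried one 57.2 kb downstream (chr12:99391718-99394125) with scores of 762, 306 and 490 and densities of 1.71 (1.48 to 1.97), 1.3 (1.11 to 1.51) and 1.48 (1.26 to 1.73). Foxn4, a gene of retinal precursors, carried one 3.38 kb downstream (chr5:114269555-114271205) with scores of 362, 443 and 302, and was the 1 of these 3 genes with its highest density in the adipogenic library, 1.54 (1.33 to 1.77) against 1.47 (1.21 to 1.77) and 1.35 (1.11 to 1.62), with intervals that overlap. The bases within 75 bp of the myogenic summit of each peak are given here because these 3 peaks would be missed by a promoter count (mm10, plus strand, 151 bases, same motifs in capitals).
Foxn1: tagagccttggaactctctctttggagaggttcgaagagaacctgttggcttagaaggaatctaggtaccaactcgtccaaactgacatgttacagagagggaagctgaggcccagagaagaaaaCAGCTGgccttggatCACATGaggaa
Foxn3: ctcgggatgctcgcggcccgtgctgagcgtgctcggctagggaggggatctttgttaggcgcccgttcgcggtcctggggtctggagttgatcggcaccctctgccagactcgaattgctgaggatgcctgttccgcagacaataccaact
Foxn4: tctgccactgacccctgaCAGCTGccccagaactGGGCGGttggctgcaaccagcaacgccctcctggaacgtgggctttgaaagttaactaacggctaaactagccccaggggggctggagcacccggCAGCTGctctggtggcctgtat
The windows were chr11:78363988-78364138 for Foxn1, chr12:99392373-99392523 for Foxn3 and chr5:114270134-114270284 for Foxn4. Foxn1 and Foxn4 held 2 E-boxes each, and Foxn4 also 1 GC box, while Foxn3 held no match. The Foxn3 window had 62.3% GC and an observed to expected CpG ratio of 0.90, beside medians of 52.3% and 0.25 over the 43426 myogenic summits, and the Foxn1 window 48.3% and 0.23. Of those summits 57.6% held an E-box, 13.2% a GC box, 10.6% an AP-1 site and 1.53% the forkhead core. With predicted RefSeq transcripts included, the Foxn3 peak lay 68, 9 and 182 bp from a TSS in the 3 libraries, and so would count as a promoter peak of a shorter transcript.

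The FoxA genes, pioneer factors of endoderm, had a promoter peak at 1 of 3 in the myogenic and in the adipogenic library. In LSD1(OE) this was 2 of 3. Of all genes 51.6, 30.0 and 41.2% had one in the myogenic, adipogenic and LSD1(OE) libraries. Foxa3 had a promoter peak in each library, with scores of 656, 136 and 464 and densities of 2.10 (1.75 to 2.51), 1.13 (0.92 to 1.38) and 1.55 (1.30 to 1.83), and its adipogenic to myogenic ratio of 0.54 (0.41 to 0.71) was the lowest of the family. The myogenic peak was centred 188 bp from the TSS of Sympk and 650 bp from that of Foxa3. Foxa2 had 1 weak peak, in LSD1(OE), with a score of 58.5 and 34 tags. Foxa1 had none.

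Among the remaining genes, Foxj3, which acts in muscle fibre type and regeneration, had promoter peaks with scores of 631, 215 and 235 and densities of 1.69 (1.44 to 1.98), 1.39 (1.14 to 1.67) and 1.36 (1.09 to 1.68), which did not differ beyond the counting interval. Foxj2 scored 547 in the myogenic library and 89.2 in LSD1(OE), at densities of 1.78 (1.51 to 2.09) and 1.11 (0.81 to 1.48), and had no adipogenic promoter peak. A peak about 9 kb upstream of it was called in all 3 libraries with scores of 402, 117 and 208. Foxj1, the factor of motile cilia, had a myogenic peak with a score of 148 and 57 tags. Foxh1, a partner of Smad proteins, had strongest promoter peaks with scores of 417, 169 and 163 whose centres lay 45, 389 and 522 bp from the TSS of Ppp1r16a and farther from its own. A second LSD1(OE) peak with a score of 50.7 and 39 tags covered the Foxh1 TSS. Its LSD1(OE) to myogenic density ratio, 0.61 (0.46 to 0.80), was the lowest of the family. A region downstream of Foxh1 with scores of 762, 322 and 904 was centred within 133 bp of the TSS of Kifc2. Foxb2 and Foxe3 had 1 weak locus peak each, in the myogenic library, with scores of 91.1 and 74.1.

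The 12 genes with no locus peak in any library included Foxa1, Foxb1, Foxd3, Foxd4, Foxe1, Foxi1, Foxi2, Foxi3, Foxl2, Foxr1 and Foxr2. Among them are genes known from neural crest, thyroid, inner ear, ovary or germ line. The nearest peak centre in any library was more than 100 kb from a TSS at 5 of the 12 genes and as close as 13.5 kb at Foxr1.

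Set side by side over the family, densities at overlapping strongest promoter peaks were lower in the adipogenic than in the myogenic library at all 15 genes that had such a pair, with the interval below 1 at 10 of them, beside 62.6% of all genes, and above 1 at 0, beside 0.0516%. The median ratio was 0.70, beside 0.72 over 5819 genes, and 96.6% of all genes had a ratio below 1, so a lower adipogenic density was shared with nearly all genes. Each density was taken over the called length of its own library. The adipogenic peak was longer than the myogenic one at Foxo1 (3754 against 2602 bp) and Foxs1 (4065 against 2236 bp), and shorter at Foxc1 (3065 against 3738 bp). The part of called length in these ratios was not tested. The LSD1(OE) to adipogenic ratio had a median of 1.16 over 14 forkhead genes, beside 1.12 over 5302 genes. Its interval lay above 1 at 5 genes (Foxa3, Foxc2, Foxo1, Foxq1 and Foxs1), beside 19.0% of all genes, and below 1 at 0, beside 0.868%. The LSD1(OE) to myogenic ratio had a median of 0.79 over 18 genes, beside 0.81 over 7558 genes, with the interval below 1 at 10 genes, beside 35.8% of all genes, and above 1 at Foxq1, beside 0.860%. No test was run on these counts. These 3 ratios share libraries and are not independent of each other. The lowest LSD1(OE) to adipogenic ratio was that of Foxh1, 0.87 (0.65 to 1.15).

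**Figure D4:**
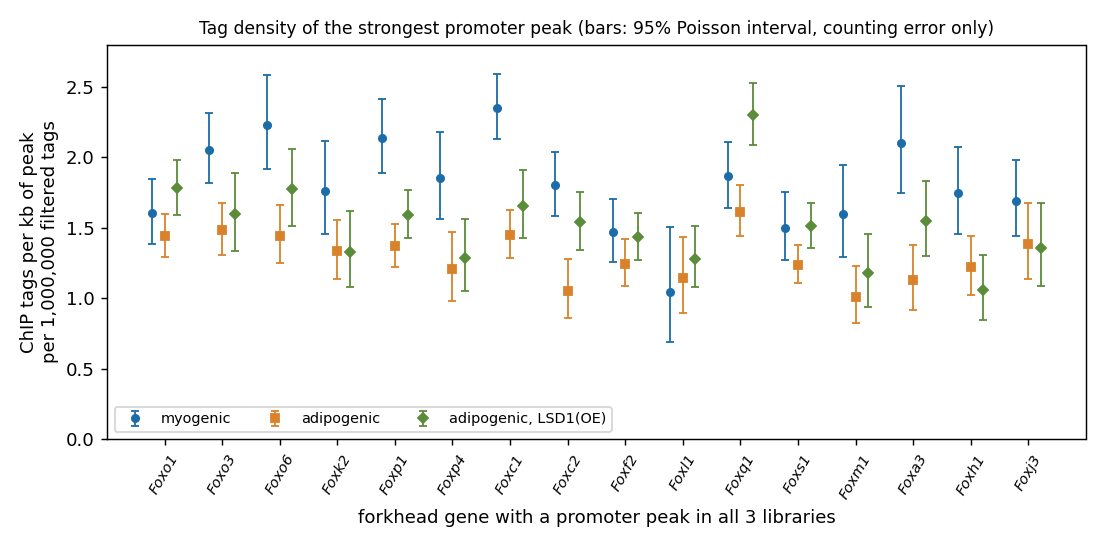
Tag density (ChIP tags per kb of peak per 1000000 filtered tags) of the strongest promoter peak at the 16 forkhead genes with one in all 3 libraries, with 95% Poisson intervals for counting error only and 1 library per condition. The adipogenic density lies below the myogenic one at every gene but Foxl1, whose 2 peaks are different regions, and at Foxq1 the LSD1(OE) density (2.30) lies above both others.

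The neighbours of the family in signalling were counted by the same promoter rule from lists of known genes. Of 20 genes of insulin and FoxO signalling, 19 had a promoter peak in the myogenic library (95%), 16 in the adipogenic library (80%) and 16 in LSD1(OE) (80%), beside 51.6, 30.0 and 41.2% of all genes. Irs2, an insulin receptor substrate, scored 1504, 981 and 1495. Irs1 scored 1256 and 1754 in the myogenic and LSD1(OE) libraries and had no adipogenic promoter peak. Of 23 known FoxO target genes 20, 16 and 18 had a promoter peak. Fbxo32, the atrophy ubiquitin ligase atrogin-1, scored 593, 489 and 538 and Bcl2l11, a cell death gene, 2722, 685 and 1730, while Trim63, the other atrophy ligase, and Klf15 had none in any library. Of 12 Foxm1 target genes 8, 5 and 7 had a promoter peak, and of 10 FoxK partner genes 10, 4 and 7. Sin3a, the scaffold to which FoxK factors bind, scored 720 in the myogenic library and 301 in LSD1(OE) and had no adipogenic promoter peak. The lists were chosen with earlier results of these data known, and no test was run on their counts.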

How the data were processed

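Lsd1 ChIP-seq of C2C12 cells was used as 3 deposited peak lists, 1 per condition, each called against its own input. Single reads of 50 bp were aligned to mm10 with Bowtie by the authors, who called peaks with MACS 1.4.2, per the file headers, at a p cut-off of 1e-05. The deposited lists give per peak a count of ChIP tags after duplicate removal, without normalization, a score (the −log10 p-value times 10), an FDR in percent and a fold enrichment. The deposited fold enrichment was not compared between libraries, because its scale differed. All deposited peaks had an FDR under 1% (highest 0.37, 0.73 and 0.44%). Filtered inputs held 87508211, 81567427 and 100711088 tags.

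TSSs, exons and coding parts were taken from curated RefSeq transcripts on GRCm38.p6, whose coordinates are those of mm10. Peak centres were assigned to every gene within the stated window, so that 1 peak can count for neighbouring genes. Named genes were all members, and promoter bases were chosen by score and symbol order as stated. Members and lists were chosen with earlier results of these data known. Tag densities carry exact 95% Poisson intervals and their ratios exact conditional (Clopper-Pearson) intervals, for counting error only. Those cover no variation between cultures. No test was run, since each condition had 1 library. Alternatives were a stricter FDR, a minimum score, equal peak numbers, other windows, the summit, any overlap, the nearest TSS only and predicted transcripts. A further one divided each score by the scaling factor of the ChIP tags and kept peaks of 50 or more, without computing p-values anew. Peak assignment was tested on simulated data. Python 3.11.15, NumPy 2.4.6, pandas 2.3.3, SciPy 1.17.1 and matplotlib 3.10.9 were used. The reads were not analysed here. Some genes are not reported here.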

Additional observations from a re-analysis of the deposited data

How the results depend on the processing

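Over 10 alternatives for promoter peaks and 8 for locus peaks, 88 of 89 values of the counts of forkhead genes and the median scores stayed within 1.5 times the reported value. The exception was the count of genes with an adipogenic peak in the gene body alone, 14 in place of the 22 found with 10 kb on either side. Promoter counts ran from 18 to 25 in the myogenic library, from 13 to 18 in the adipogenic library and from 17 to 25 in LSD1(OE), and genes with a promoter peak in all 3 libraries from 11 to 18. The shares of all genes were not computed under these alternatives, so the comparisons of forkhead with all genes were not checked in this way. With FDR under 0.1% the peaks of Foxd1 and Foxl1 (myogenic), Foxl1 and Foxm1 (adipogenic) and Foxa2, Foxf1, Foxj2, Foxk1 and Foxn2 (LSD1(OE)) were lost. With scores divided by the scaling factor those of Foxd1 and Foxl1 (myogenic) and Foxa2, Foxj2, Foxk1 and Foxn2 (LSD1(OE)) were lost. A minimum score of 100 lost the same genes. With the nearest TSS only, Foxa3, Foxd2, Foxh1 and Foxm1 (myogenic), Foxh1 and Foxm1 (adipogenic) and Foxf1 (LSD1(OE)) went to neighbouring genes. A window of 1000 bp left 20, 13 and 17 genes, and one of 5000 bp added Foxn1 and Foxn4 in all 3 libraries and Foxb2 in the myogenic library. No paired analysis was possible because each condition had 1 library and no result came from a test. Depth limits the weakest peaks, those of about 30 tags.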
